A study of Mus musculus with 18 samples.

Results

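The comparison described here is that of primary murine renal proximal tubular epithelial cells (RPTEC) stimulated for 6 h with TWEAK in the presence of the NIK inhibitor NIK SMI1 against the same cells stimulated with TWEAK alone. It rests on 6 of the 18 RNASeq samples of the series, 3 with 100 ng/mL recombinant mouse TWEAK and 3 with TWEAK and 3 μM NIK SMI1, chosen by the agent and time point in their labels. The other groups, again of 3 samples each, were vehicle at 6 h, and vehicle, TWEAK, and TWEAK with NIK SMI1 at 24 h. The cells were purchased primary cells of C57BL/6 mice, the vehicle was DMSO, and the dose of the inhibitor was its approximate IC90 in the labels. One dose was given, and no group received NIK SMI1 without TWEAK. Nothing in the labels says that the 3 samples of a group came from separate animals or preparations, so p-values measure the spread between these samples, which may be technical.

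TWEAK (encoded by Tnfsf12) is a cytokine of the TNF family that signals through the receptor Fn14 (encoded by Tnfrsf12a), which epithelial cells of injured kidney carry. In unstimulated cells NIK, the kinase encoded by Map3k14, is kept low because a complex of TRAF2, TRAF3 and the ubiquitin ligases cIAP1 and cIAP2 marks it for degradation. When TWEAK engages Fn14 this complex is withdrawn, NIK accumulates and acts through IKKα, the precursor p100 (Nfkb2) is cut to p52, and p52 with RelB enters the nucleus. Fn14 can also start the faster canonical pathway, in which IκB proteins are degraded and RelA with p50 is released.

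Of the 36528 genes in the files, 15521 had more than 10 reads in at least 4 of the 18 samples and were tested, and 10318 had no read in any sample. The 6 samples compared held 18040966 to 50300748 counted reads, with the 3 inhibitor samples (18040966 to 35933483) at lower totals than most TWEAK samples (34815025 to 50300748). Levels are given as CPM, the count of a gene relative to the TMM-scaled total of its library. The label of the cells was checked against marker genes. General renal epithelial markers were abundant, with a summed level over the 10 listed genes of 13120 to 13708 CPM in the TWEAK samples. This list includes Epcam and keratins of simple epithelia, so its sum does not by itself mark kidney. The summed level of 14 proximal tubule markers was 11.6 to 12.9 CPM, 6 of them were tested and none was called (1 was lowered at an unadjusted p under 0.05, 0 were called by DESeq2). Slc34a1, Slc22a6, Slc22a8 and Miox had no read in the 9 samples of 6 h. The transporter genes Slc34a1, Slc22a6 and Slc22a8 were thus not detected at 6 h, while the listed markers other than these and Miox had reads. Transcripts of pancreatic islet cells, which are foreign to kidney, were present in all 9 samples of 6 h. The summed level over 10 markers was 17.7 to 33.2 CPM with TWEAK and 16.7 to 19.4 CPM with the inhibitor. TWEAK sample 1 was the highest, and none of the 7 tested markers was called by edgeR, by DESeq2 or at an unadjusted p under 0.05. Their part in the results was not tested, and without TWEAK sample 1 the comparison called 682 genes lowered and 488 raised.

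After 6 h, NIK SMI1 lowered 885 and raised 829 of the 15521 tested genes relative to TWEAK alone (adjusted p under 0.05, edgeR quasi-likelihood test with Benjamini-Hochberg adjustment, as for all adjusted p-values here). These are 5.70% and 5.34% of the genes tested, the background against which the gene lists are read. In numbers the directions were nearly balanced, but in size they were not. A decrease of more than 1.5-fold was found for 170 genes (1.10%) and an increase of that size for 46 (0.296%), and 69 genes fell but 12 rose more than 2-fold. These counts rest on the fitted fold change of genes called against no change. When the change itself had to exceed 1.5-fold (edgeR glmTreat), 37 genes were lowered and 0 raised. The median log2 fold change was -0.26 among the lowered and 0.23 among the raised genes, against 0.003 over all genes tested. Separation of the 3 inhibitor from the 3 TWEAK samples, given below for single genes, was found for 13.1% of all tested genes in each direction. The loss of TWEAK sample 1 or inhibitor sample 2 weakened the raised side more, with 682 lowered and 488 raised genes without the former and 625 and 513 without the latter. This did not hold for every sample: without inhibitor sample 1 the counts were 705 and 683, and without inhibitor sample 3 both rose. Without any 1 of the 6 samples the lowered genes numbered 625 to 964 and the raised genes 488 to 861.

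**Figure D1:**
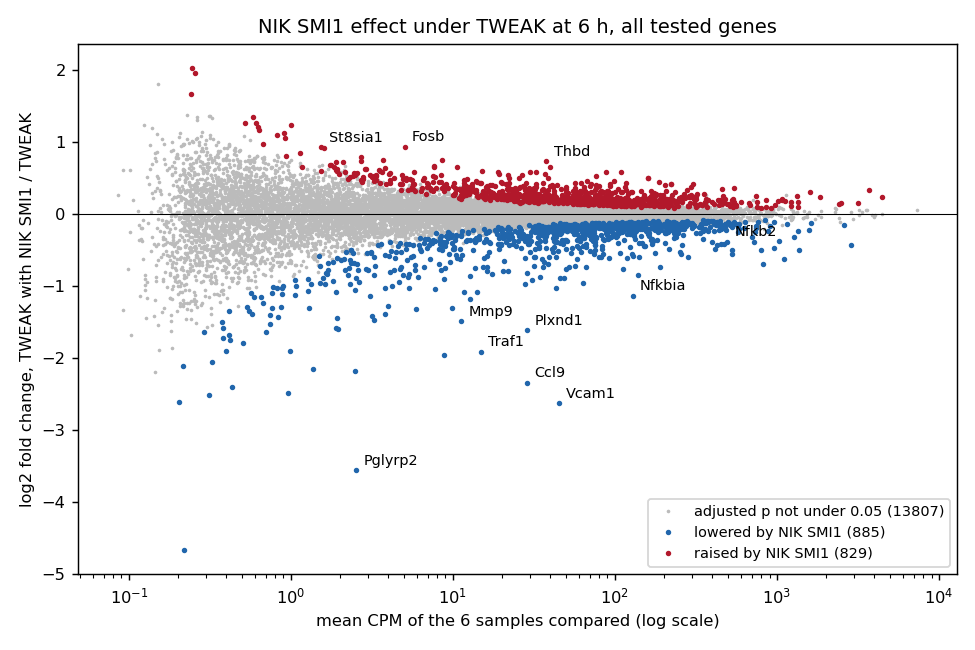
Log2 fold change of TWEAK with NIK SMI1 against TWEAK at 6 h (vertical axis) for each of the 15521 tested genes, by mean CPM of the 6 samples on a log scale (horizontal axis). Blue points are the 885 lowered and red points the 829 raised genes, and grey points did not pass the test, and the blue points reach much farther from 0 than the red ones among genes above 1 CPM.

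The largest decreases and increases below are ranked among called genes with a mean of at least 1 CPM over the 6 samples. Their inhibitor and TWEAK samples also had to be separate, so this separation was a condition of choice and not a result. Called genes outside this set reached log2 fold changes of -4.667 and 2.025. The gene with the largest decrease in the set was Pglyrp2 (GeneID 57757, chr17:32412459-32424219, all positions in GRCm38.p6), which encodes a secreted amidase that degrades bacterial peptidoglycan. Its level was 5.13, 4.45 and 4.41 CPM in the TWEAK samples and 0.315, 0.576 and 0.282 CPM with the inhibitor, against 0.134, 0.0544 and 0.0780 CPM with vehicle. The inhibitor samples lay far below the TWEAK samples and above vehicle. The decrease was 11.8-fold (log2 fold change -3.56 ± 0.21, adjusted p = 3.87e-12, SE here and below), with 5 to 14 reads behind each inhibitor value. Pglyrp3, a second peptidoglycan recognition gene, fell as well, from 2.85 ± 0.375 to 0.963 ± 0.141 CPM (SD, n = 3, log2 fold change -1.59 ± 0.24, adjusted p = 3.65e-05).

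Vcam1 (GeneID 22329, chr3:116110020-116129688), the endothelial and epithelial ligand of the leukocyte integrin VLA-4, stood at 82.6, 72.3 and 77.2 CPM with TWEAK and at 11.7, 12.1 and 14.2 CPM with the inhibitor. All inhibitor values were far below every TWEAK value, and all were above the vehicle values of 4.13, 4.05 and 4.31 CPM. The log2 fold change was -2.63 ± 0.069, adjusted p = 8.18e-20, and with the inhibitor Vcam1 still exceeded vehicle by 1.58 ± 0.097 on the log2 scale (adjusted p = 2.49e-12). Ccl9 (GeneID 20308, chr11:83572917-83578636), a CC chemokine that attracts myeloid cells, showed the same order. It was at 49.2, 44.1 and 50.2 CPM in the TWEAK samples, 9.38, 8.84 and 10.1 CPM with the inhibitor and 1.14, 1.28 and 1.09 CPM with vehicle. It fell 5.08-fold (log2 fold change -2.35 ± 0.063, adjusted p = 8.77e-20) without overlap of the groups.

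Traf1 (GeneID 22029, chr2:34941750-34961812), an adaptor of TNF receptors that does not itself carry a RING domain, was measured at 22.96, 23.7 and 24.2 CPM with TWEAK, 6.45, 6.38 and 5.81 CPM with the inhibitor and 1.65, 1.14 and 0.839 CPM with vehicle. The 3 groups were fully separated, and the decrease by the inhibitor was 3.77-fold (log2 fold change -1.92 ± 0.09, adjusted p = 2.73e-14). Plxnd1 (GeneID 67784, chr6:115954811-115995339), a semaphorin receptor, went from 42.5, 41.97 and 45.4 CPM to 14.4, 14.8 and 12.8 CPM, with vehicle at 7.05, 6.47 and 7.29 CPM (log2 fold change -1.61 ± 0.057, adjusted p = 3.69e-17). Here too the inhibitor samples lay between vehicle and TWEAK without touching either.

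The other genes with the largest decreases had a wide range of functions. Calcb, which encodes a calcitonin gene-related peptide, fell from 13.8 ± 1.34 to 3.67 ± 0.636 CPM (log2 fold change -1.96 ± 0.14). Mmp9, a gelatinase that cuts denatured collagen and collagen IV, fell from 16.6 ± 0.877 to 5.82 ± 0.793 CPM (-1.49 ± 0.091). Krt16, a keratin of stressed epithelia, fell from 2.93 ± 0.276 to 0.966 ± 0.129 CPM (-1.60 ± 0.20). Mrc1, the mannose receptor, fell from 4.83 ± 0.747 to 1.65 ± 0.522 CPM (-1.47 ± 0.19). Lgsn, a relative of glutamine synthetase, and Dock10, a guanine nucleotide exchange factor of the DOCK family, fell by 4.52-fold and 4.46-fold from mean levels of 4.06 and 2.23 CPM. Each of these 6 genes was higher with TWEAK than with vehicle in the same fit, by log2 values of 1.93 (Mrc1) to 3.70 (Lgsn). That comparison uses the same TWEAK samples, so it is given as a value beside the inhibitor effect and not as a separate line of evidence. With the inhibitor, Dock10 and Mrc1 did not differ from vehicle by the test (adjusted p = 0.0868 and 0.194), while the other 4 remained higher.

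**Figure D2:**
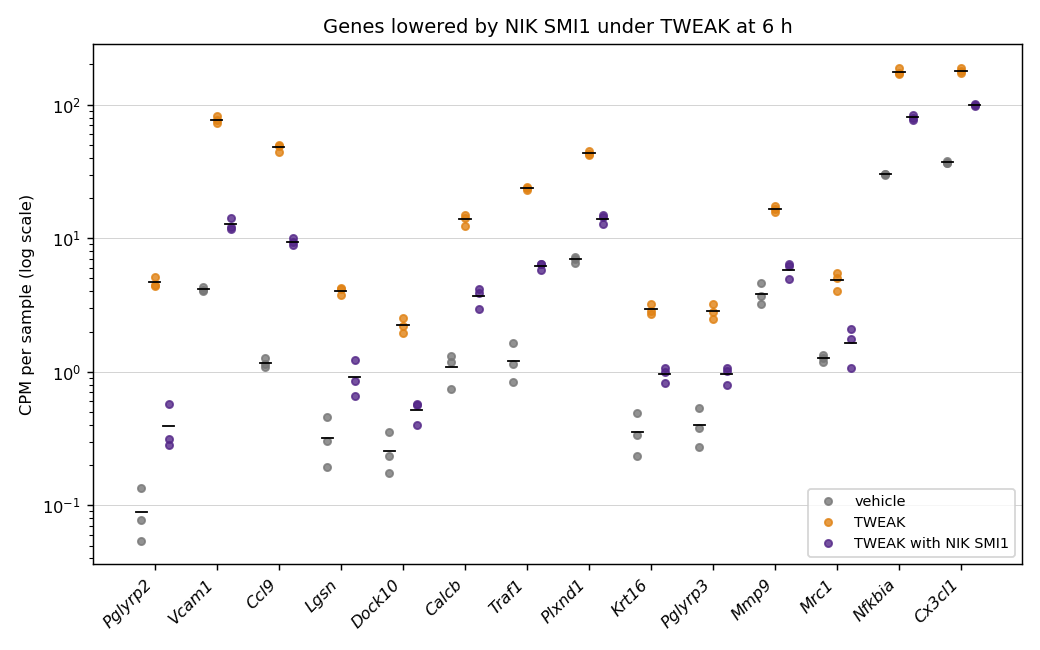
CPM on a log scale (vertical axis) in each of the 3 vehicle (grey), 3 TWEAK (orange) and 3 TWEAK with NIK SMI1 (purple) samples at 6 h, with a bar at each group mean, for the 12 genes with the largest decreases and for Nfkbia and Cx3cl1. The 12 were chosen among called genes with a mean of at least 1 CPM and separate purple and orange points. In all 14 genes the purple points lie below the orange points, and their means lie above those of vehicle.

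Promoters, here the 250 bases before and 50 bases after a transcription start in RefSeq (GRCm38.p6), were searched on both strands for the NF-κB consensus. The 12 genes with the largest decreases and the 12 with the largest increases are those ranked as above. Entries were at hand for 7 of the former and 10 of the latter. One gene of each group of 12 held a match, Ccl9 on the lowered side and Fosb, first of the raised 12, on the raised side. Their promoters are printed with those of Nfkbia and Nfkb2, a pair added after their values were seen because they encode the inhibitor and the precursor at the centre of both pathways. For this pair a match was a condition of printing, so its presence there is not a result. Capitals mark the matches.
Ccl9, chr11:83578587-83578886, minus strand: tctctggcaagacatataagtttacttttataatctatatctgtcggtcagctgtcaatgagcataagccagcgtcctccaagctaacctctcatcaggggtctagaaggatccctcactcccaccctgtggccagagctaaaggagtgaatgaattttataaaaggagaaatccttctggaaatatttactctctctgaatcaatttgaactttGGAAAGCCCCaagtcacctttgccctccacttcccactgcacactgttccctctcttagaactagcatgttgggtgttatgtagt
Nfkbia, chr12:55492598-55492897, minus strand: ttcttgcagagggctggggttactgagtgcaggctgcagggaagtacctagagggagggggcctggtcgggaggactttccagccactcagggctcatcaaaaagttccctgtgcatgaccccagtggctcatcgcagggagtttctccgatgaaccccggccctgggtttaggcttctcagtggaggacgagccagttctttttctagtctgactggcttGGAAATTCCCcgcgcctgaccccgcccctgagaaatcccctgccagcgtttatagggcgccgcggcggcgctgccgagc
Nfkb2, chr19:46304487-46304786, plus strand: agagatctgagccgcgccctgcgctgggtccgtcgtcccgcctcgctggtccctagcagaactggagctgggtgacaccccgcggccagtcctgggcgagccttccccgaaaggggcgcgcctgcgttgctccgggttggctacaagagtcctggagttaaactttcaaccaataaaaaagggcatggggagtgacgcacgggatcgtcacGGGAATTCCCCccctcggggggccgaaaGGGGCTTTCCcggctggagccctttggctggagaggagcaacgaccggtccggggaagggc
Fosb, chr7:19309996-19310295, minus strand: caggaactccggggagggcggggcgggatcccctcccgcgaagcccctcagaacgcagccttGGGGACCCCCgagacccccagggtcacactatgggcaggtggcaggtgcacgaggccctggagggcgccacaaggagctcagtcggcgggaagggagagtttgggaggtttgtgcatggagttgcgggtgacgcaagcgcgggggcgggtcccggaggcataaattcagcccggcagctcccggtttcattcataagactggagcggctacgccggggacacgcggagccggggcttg
The single match began 35 bases before the start in Ccl9, 29 bases before it in Nfkbia and 188 bases before it in Fosb. Nfkb2 held 3 matches, 2 of which overlap, from 39 to 11 bases before the start. A match was found in the first listed promoter of 5.11% of the 11228 tested genes with an entry. The share was 9.27% of 669 lowered and 5.78% of 658 raised genes. It was 13.1% of 122 genes lowered more than 1.5-fold (16 genes) and 2.86% of 35 raised more than 1.5-fold (1 gene). These shares are a description of letters in a short window and say nothing of binding.

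Among the 11 tested genes of the TWEAK receptor and the non-canonical pathway, 4 fell and 2 rose with the inhibitor (median log2 fold change -0.06). The ligand gene Tnfsf12 did not pass the test. The receptor gene Tnfrsf12a was at 466, 488 and 506 CPM with TWEAK and 527, 565 and 505 CPM with NIK SMI1. Its groups overlapped. Its small increase (log2 fold change 0.13 ± 0.039, adjusted p = 0.0269) was lost when TWEAK sample 1 or 2 or inhibitor sample 1 or 2 was left out, with adjusted p-values up to 0.23. Map3k14, which encodes the target of the inhibitor, rose without overlap, from 96.5, 99.1 and 106 CPM to 136, 145 and 124 CPM (log2 fold change 0.43 ± 0.053, adjusted p = 1.3e-06). Map3k14 was also higher with TWEAK than with vehicle (53.2, 54.04 and 58.6 CPM, log2 fold change 0.86), so that NIK SMI1 moved it farther from vehicle.

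The transcription factor genes of the pathway fell modestly. Nfkb2, which encodes the precursor p100, was at 559, 535 and 578 CPM with TWEAK and 425, 442 and 412 CPM with the inhibitor. Relb, which encodes the partner of p52, was at 75.3, 74.98 and 78.5 CPM and 63.96, 67.9 and 64.95 CPM. Both were separated between the groups, with log2 fold changes of -0.39 ± 0.036 and -0.22 ± 0.045 (adjusted p = 9.49e-09 and 0.00129). Both remained well above their vehicle levels of 149 ± 4.54 and 43.2 ± 0.626 CPM. Larger decreases were seen for the ubiquitin ligases that keep NIK low. Birc3 (cIAP2) fell from 38.5, 35.9 and 35.96 to 20.8, 20.4 and 21.2 CPM. Birc2 (cIAP1) fell from 40.4, 35.6 and 36.9 to 26.2, 26.2 and 28.6 CPM. The log2 fold changes were -0.82 ± 0.068 and -0.48 ± 0.065 (adjusted p = 1.39e-09 and 5.36e-06). Traf3, the adaptor that tethers NIK to them, was at 173 ± 6.57 CPM and 164 ± 2.76 CPM and did not pass the test (log2 fold change -0.08 ± 0.037, adjusted p = 0.177).

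In the canonical pathway 7 of 13 tested genes fell and none rose (median -0.20, edgeR, with 0 raised also at an unadjusted p under 0.05 and by DESeq2). The largest decrease was that of Nfkbia, which encodes IκBα, the main brake on RelA. Its levels were 173, 169 and 189 CPM with TWEAK and 80.1, 84.2 and 76.8 CPM with NIK SMI1, a 2.20-fold decrease without overlap (log2 fold change -1.14 ± 0.042, adjusted p = 9.52e-17), against 30.03 ± 0.346 CPM with vehicle. Nfkbie, encoding IκBε, fell from 65.7, 61.9 and 66.8 to 37.5, 39.2 and 40.6 CPM (log2 fold change -0.73 ± 0.059, adjusted p = 7.16e-10). The subunit genes moved less, with Nfkb1 (p105 and p50) at -0.29 ± 0.032 and Rela at -0.10 ± 0.031 on the log2 scale. The call for Rela (adjusted p = 0.0332) was lost in 8 of 13 alternative settings, among them 4 of the 6 in which 1 sample was left out. Without TWEAK sample 2 or inhibitor sample 1, 4 genes of the list were called in place of 7.

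The feedback regulators of NF-κB showed 6 decreases and no increase among 16 tested genes by edgeR (1 increase at an unadjusted p under 0.05, 0 by DESeq2). Tnfaip3, which encodes the deubiquitinase A20, went from 540.1, 540.4 and 539 to 416, 392 and 408 CPM (log2 fold change -0.41 ± 0.033, adjusted p = 8.19e-10), with vehicle at 345, 343 and 348 CPM. Tnip1 and Tnip3, which encode A20-binding proteins, also fell, with log2 fold changes of -0.35 ± 0.037 and -1.39 ± 0.16. Tank, an adaptor of TRAF proteins, had one of -0.44 ± 0.054. At 2.11 ± 0.133 CPM with the inhibitor, Tnip3 was near its vehicle level of 1.65 ± 0.206 CPM (adjusted p = 0.257).

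Of 16 tested chemokine genes (of 29 listed), 6 fell and none rose (median -0.35, edgeR, with 0 raised also at an unadjusted p under 0.05 and by DESeq2, and 3 lowered after thinning all samples to the smallest). The most abundant were Cxcl16 and Cx3cl1, both made as membrane-bound proteins that hold leukocytes and can be shed. Cx3cl1 was at 178, 171 and 189 CPM with TWEAK and 98.1, 102 and 98.9 CPM with NIK SMI1 (log2 fold change -0.85 ± 0.048, adjusted p = 9.58e-13). Cxcl16 was at 479.5, 469.5 and 507 and 356, 359 and 326 CPM (log2 fold change -0.48 ± 0.038, adjusted p = 4.02e-10). Neither had overlapping samples, and both stayed above vehicle, at 37.04 ± 0.770 and 203 ± 8.85 CPM. Cxcl1, a neutrophil attractant, was at 36.95 ± 2.61 and 30.8 ± 1.70 CPM (log2 fold change -0.26 ± 0.067, adjusted p = 0.00945). This call was lost after thinning and without TWEAK sample 1 or inhibitor sample 2 (adjusted p up to 0.0821).

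Ccl2, Cxcl10 and Ccl5, which attract monocytes and T cells, were scarce in these cells. Ccl2 was at 1.06, 1.33 and 1.10 CPM with TWEAK and 0.373, 0.699 and 0.734 CPM with the inhibitor (log2 fold change -1.03 ± 0.31, adjusted p = 0.0287). Its decrease was lost with DESeq2 (adjusted p = 0.0504), after thinning (0.121), and without TWEAK sample 2 (0.113) or inhibitor sample 1 (0.22). Cxcl10 was at 3.30, 3.15 and 4.11 and 2.72, 1.77 and 2.65 CPM (log2 fold change -0.55 ± 0.17, adjusted p = 0.0308). It was not called with the 9 samples of 6 h or the 6 compared fitted alone, or after thinning. The call was also lost without TWEAK sample 3 or inhibitor sample 2, with adjusted p up to 0.233. Ccl5, with 6 to 26 reads in the inhibitor samples, was at 0.796, 0.756 and 1.12 and 0.745, 0.288 and 0.339 CPM and did not pass the test (log2 fold change -0.84 ± 0.35, adjusted p = 0.142), except without inhibitor sample 1 (-1.50, adjusted p = 0.0301). For these 3 genes the samples of each group did not overlap, but the depth leaves their fold changes imprecise.

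Among cytokine and growth factor genes 6 of 21 tested fell and none rose (median -0.17, edgeR, with 0 raised also at an unadjusted p under 0.05 and by DESeq2). Csf1, the growth factor of macrophages, was at 109.9, 114 and 114 CPM with vehicle, 171, 168 and 172 CPM with TWEAK and 117, 109.5 and 109 CPM with TWEAK and NIK SMI1. The inhibitor samples were below all TWEAK samples and overlapped the vehicle range (log2 fold change -0.60 ± 0.034, adjusted p = 9.29e-13, and against vehicle -0.01 ± 0.034, adjusted p = 0.956). Csf2, encoding GM-CSF, went from 26.1, 24.6 and 26.6 to 14.3, 15.8 and 14.6 CPM (log2 fold change -0.79 ± 0.078). Il23a, encoding the p19 subunit of interleukin-23, went from 40.02, 36.05 and 42.3 to 22.96, 23.6 and 25 CPM (-0.73 ± 0.064), and neither gene had overlapping groups. Tgfb2, a TGF-β isoform, fell from 15.1, 13.3 and 14.1 to 6.25, 6.25 and 4.18 CPM (log2 fold change -1.31 ± 0.12, adjusted p = 9.49e-09). Edn1, the precursor of endothelin-1, fell from 35.2 ± 1.29 to 24.3 ± 0.556 CPM (log2 fold change -0.53 ± 0.067, adjusted p = 2e-06).

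The receptor list had 12 decreases and 1 increase among 30 tested genes (median -0.17). Ngfr, the low-affinity neurotrophin receptor of the TNF receptor superfamily, fell from 19.5, 17.4 and 20.8 to 9.66, 8.97 and 8.24 CPM (log2 fold change -1.08 ± 0.077, adjusted p = 9.25e-11). Both chains of the interleukin-18 receptor fell. Il18r1 went from 143 ± 5.59 to 93.3 ± 2.36 CPM and Il18rap from 110.4 ± 4.02 to 72.2 ± 3.98 CPM. Their log2 fold changes were -0.61 ± 0.037 and -0.61 ± 0.046. Il13ra1, a chain of the interleukin-13 receptor, went from 38.4, 36.5 and 39.7 to 25.3, 25.5 and 25.1 CPM, close to its vehicle values of 24.2, 23.7 and 23.2 CPM. The one increase was that of Il17re, a receptor chain for interleukin-17C, from 37.5 ± 0.661 to 43.7 ± 0.789 CPM (log2 fold change 0.22 ± 0.059, adjusted p = 0.0144). It was lost without TWEAK sample 1 or inhibitor sample 2 (adjusted p up to 0.0667).

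Of 12 tested adhesion genes 7 fell and 2 rose (median -0.33). Beside Vcam1, Icam1, the ligand of β2 integrins, fell from 7.40, 7.13 and 7.15 to 4.07, 2.84 and 3.56 CPM without overlap (log2 fold change -1.03 ± 0.14, adjusted p = 8.7e-06), with vehicle at 1.18, 1.28 and 1.13 CPM. Cd44, the hyaluronan receptor, was far more abundant, at 1133, 1086 and 1115 CPM with TWEAK and 805, 759.6 and 826 CPM with NIK SMI1 (log2 fold change -0.48 ± 0.034, adjusted p = 7.72e-11). Decreases were also found for Cd47, the ligand of SIRPα, at -0.53 ± 0.038, and for Cd34, a sialomucin, at -0.91 ± 0.089 on the log2 scale. The increases were those of the junctional and cell surface adhesion genes Jam2 (0.21 ± 0.06) and Mcam (0.18 ± 0.05), which were not called in 3 and 5 of 13 alternative settings. Of the list, 1 or 0 increases were called when any 1 sample other than inhibitor sample 3 was left out.

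Proteases and their inhibitors moved in both directions, with 9 decreases and 4 increases among 27 tested genes (median -0.07). Both plasminogen activator genes fell. Plat went from 242, 219.7 and 234 to 182, 176 and 166 CPM (log2 fold change -0.40 ± 0.037, adjusted p = 1.08e-08) and Plau, which encodes urokinase, from 954 ± 27.6 to 809 ± 23.4 CPM (-0.24 ± 0.029). Plaur, which encodes the receptor of urokinase, rose from 145, 148 and 155 to 168, 173 and 169 CPM (0.19 ± 0.037). Adam8, a metalloprotease of the cell surface, fell (-0.46 ± 0.041). Mmp15, a membrane-type matrix metalloprotease, rose from 263 ± 7.34 to 312 ± 12.4 CPM (0.25 ± 0.036). For Plaur the TWEAK and vehicle samples overlapped (adjusted p = 0.928), so that the samples with NIK SMI1 stood above both other groups.

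Genes for MHC class I and its peptide loading fell by small amounts, and 10 of 16 tested were lowered and none raised (62.5% against the background of 5.70%, median -0.23, edgeR, with 0 raised also at an unadjusted p under 0.05 and by DESeq2). Tapbpl, which encodes the peptide editor TAPBPR, fell from 24.3, 24.1 and 27.3 to 16.3, 15.7 and 16.03 CPM (log2 fold change -0.66 ± 0.07, adjusted p = 1.05e-07). Its relative Tapbp (tapasin), the peptide-trimming protease Erap1 and the immunoproteasome subunit Psmb10 fell by less, with log2 fold changes of -0.24 ± 0.036, -0.36 ± 0.05 and -0.37 ± 0.061. Erap1 with the inhibitor was at 44.9, 41.1 and 45.8 CPM, beside vehicle values of 45.4, 41.4 and 43.8 CPM. MHC class I genes are near-identical copies of each other, and uniquely aligned reads may be split unevenly between them.

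Of 40 tested interferon-stimulated genes 8 fell and none rose (median -0.09, edgeR, with 4 raised at an unadjusted p under 0.05, 0 by DESeq2 and 1 without inhibitor sample 1). Parp14, an ADP-ribosyltransferase, fell from 35.3, 32.3 and 33.7 to 22.2, 21.97 and 22.01 CPM (log2 fold change -0.61 ± 0.058, adjusted p = 1.69e-08). The transcription factor Irf1 went from 75.1 ± 3.00 to 61.9 ± 2.30 CPM (-0.28 ± 0.049). In the list of complement and innate defence 4 of 17 tested genes fell and 1 rose. C3, the central complement component, was at 30.4, 30.6 and 33.6 CPM with vehicle, 63.8, 59.6 and 65.1 CPM with TWEAK and 33.1, 35.5 and 33.1 CPM with NIK SMI1. Its inhibitor values were beside those of vehicle (log2 fold change -0.89 ± 0.066, adjusted p = 1.64e-10, and against vehicle 0.10 ± 0.068, adjusted p = 0.365). The bacterial sensor Nod2 fell (-0.49 ± 0.10). Tlr3, the receptor for double-stranded RNA, rose from 55.2 ± 2.11 to 68.8 ± 2.50 CPM (0.31 ± 0.043).

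**Figure D3:**
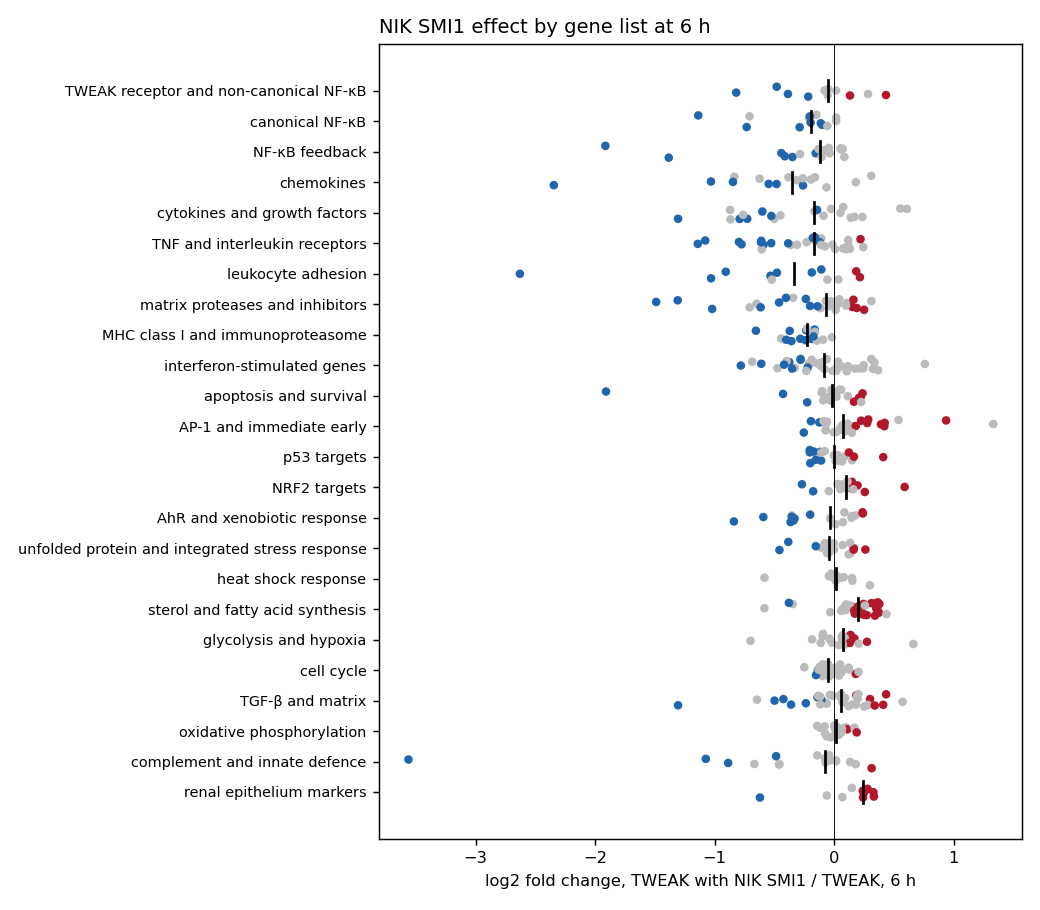
Log2 fold change of TWEAK with NIK SMI1 against TWEAK at 6 h (horizontal axis) for each tested gene of 24 gene lists (vertical axis). Blue points were lowered and red points raised at an adjusted p under 0.05, grey points did not pass, the black bar is the median of the list, and vertical jitter only separates points. Lists of NF-κB pathways, chemokines, receptors, adhesion and MHC class I carry blue points to the left of 0 and also grey points. Red points are present in the non-canonical NF-κB (2), receptor (1) and adhesion (2) lists. Most points of the sterol and fatty acid list and of the renal epithelium markers are red and lie to its right. The sterol and fatty acid list and the renal epithelium markers also hold 1 blue point each and some grey points.

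Within the ranked set of separate genes above 1 CPM, the largest increase was that of Fosb (GeneID 14282, chr7:19302696-19310118), an AP-1 transcription factor of the immediate early class. It was at 3.09, 4.04 and 3.18 CPM in the TWEAK samples and 6.94, 6.21 and 6.77 CPM with NIK SMI1. The groups did not overlap, the inhibitor samples approached the vehicle values of 8.22, 8.07 and 7.25 CPM, and the increase was 1.91-fold (log2 fold change 0.94 ± 0.13, adjusted p = 7.35e-06). St8sia1 (GeneID 20449, chr6:142821541-142989528), the sialyltransferase that makes ganglioside GD3, rose from 0.884, 1.06 and 1.26 to 1.98, 2.35 and 1.75 CPM (log2 fold change 0.93 ± 0.17, adjusted p = 0.000502), with vehicle at 3.69, 3.70 and 3.57 CPM. In this gene the 3 groups were fully separated, with the inhibitor in the middle.

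Thbd (GeneID 21824, chr2:148404471-148408188) encodes thrombomodulin, the cell surface cofactor for activation of protein C by thrombin. It was the most abundant of the 12 genes with the largest increases in the ranked set. Its level was 25.9, 31.5 and 27.5 CPM with TWEAK and 48.4, 45.8 and 47.6 CPM with NIK SMI1, against 76.03, 72.9 and 70.5 CPM with vehicle. The inhibitor samples were above all TWEAK and below all vehicle samples (log2 fold change 0.73 ± 0.066, adjusted p = 5.17e-09). Syne3, which encodes nesprin-3 of the nuclear envelope, rose from 6.37, 6.56 and 6.33 to 10.7, 10.4 and 11.3 CPM (log2 fold change 0.75 ± 0.081, adjusted p = 1.35e-07). Tll1, an astacin metalloprotease related to BMP1, rose from 1.95 ± 0.255 to 3.46 ± 0.598 CPM (0.78 ± 0.18). The kinesin gene Kif26b rose from 2.04 ± 0.185 to 3.39 ± 0.832 CPM (0.74 ± 0.17).

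The remaining genes of these 12 were at low levels. Misp3 rose from 2.74 ± 0.243 to 4.69 ± 1.03 CPM (log2 fold change 0.75 ± 0.18, adjusted p = 0.00514). Fam71f1 rose from 1.13 ± 0.404 to 2.10 ± 0.402 CPM (0.92 ± 0.22, adjusted p = 0.00499). The gene models Gm33595, Gm33250, Gm19531 and GeneID 102635186, which has no symbol in the table used, rose by 0.85, 0.72, 0.69 and 0.72 on the log2 scale. Counting error is large at these levels, since Gm33595 had 23 to 40 reads with TWEAK and 30 to 50 with the inhibitor. Its call was lost whichever of the 6 samples was left out, with adjusted p up to 0.149. The calls for Fam71f1, Misp3, Kif26b and Gm19531 were lost without inhibitor sample 2, that for Kif26b also after thinning to the smallest library, and that for Gm19531 also without TWEAK sample 1 or 3. That for GeneID 102635186 was lost without TWEAK sample 2 or inhibitor sample 1. Fosb, St8sia1, Tll1, Syne3, Thbd and Gm33250 were called in all 13 alternative settings of this test, but no raised gene was called when the increase itself had to exceed 1.5-fold. Fam71f1 differed from the others in its vehicle level of 1.32 ± 0.215 CPM, which the inhibitor samples exceeded (adjusted p = 0.0353).

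**Figure D4:**
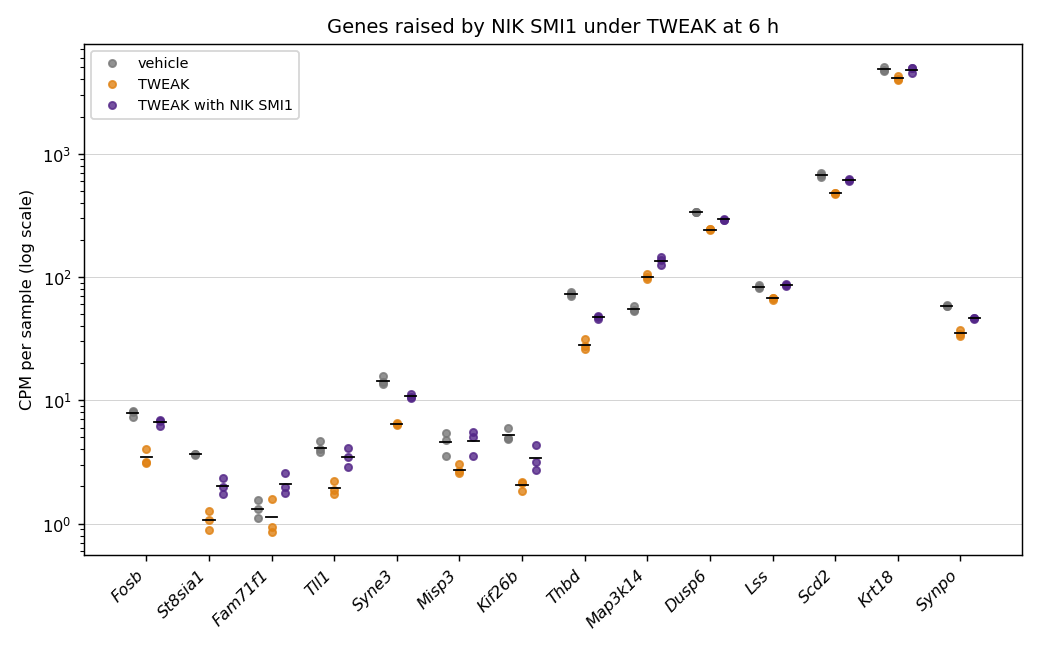
CPM on a log scale (vertical axis) in each vehicle (grey), TWEAK (orange) and TWEAK with NIK SMI1 (purple) sample at 6 h, 3 per group with a bar at the mean, for 14 genes raised by the inhibitor. In all 14 the purple points lie above the orange ones, in 12 the TWEAK samples lie below all vehicle samples, and in Map3k14 they lie above them. The genes were chosen as raised against the same TWEAK samples, so their position against vehicle is no separate line of evidence. The share of all tested genes with that position was not counted. Separate purple and orange points were a condition for choosing Fosb, St8sia1, Fam71f1, Tll1, Syne3, Misp3, Kif26b and Thbd.

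The list with the most increases was that of sterol and fatty acid synthesis, in which 25 of 39 tested genes rose and 1 fell (64.1% raised against the background of 5.34%, median log2 fold change 0.20). The count of raised members ranged from 21 to 26 over the 13 alternative settings. The changes were small and even. Hmgcs1, an early enzyme of cholesterol synthesis, was at 249, 241 and 234 CPM with TWEAK and 276, 260.2 and 284 CPM with NIK SMI1 (log2 fold change 0.18 ± 0.043, adjusted p = 0.00457). Sqle, which oxidises squalene, was at 155, 152 and 153 and 185, 179 and 181 CPM (0.24 ± 0.033, adjusted p = 5.6e-06).

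Some members of the list moved more. Lss, which closes the sterol ring system, rose from 65.5, 67.7 and 67.7 to 86.4, 87.3 and 84.8 CPM (log2 fold change 0.36 ± 0.038, adjusted p = 7.64e-08). Scd2, a stearoyl-CoA desaturase of fatty acid synthesis, rose from 469, 476 and 480.5 to 622, 608 and 597 CPM (log2 fold change 0.36 ± 0.032, adjusted p = 5.17e-09). Insig1, which retains the sterol sensor SCAP in the endoplasmic reticulum, rose by 0.25 ± 0.044 on the log2 scale. The member that fell was Mylip, which encodes a ubiquitin ligase and is a target of LXR (log2 fold change -0.38 ± 0.10, adjusted p = 0.0169). Its call was lost in 4 of 13 alternative settings.

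Side by side, and sharing the TWEAK samples, 24 of the 39 genes were lower with TWEAK than with vehicle and 0 were higher, where 12.0% and 11.7% of all tested genes were called. Between TWEAK with NIK SMI1 and vehicle, 3 of the 39 were lower and 0 higher, where the background was 6.70% and 7.23%. For Lss the log2 fold change was -0.31 for TWEAK against vehicle, 0.36 for the inhibitor against TWEAK and 0.05 for the inhibitor against vehicle, and for Scd2 the values were -0.49, 0.36 and -0.13. Genes that did not pass against vehicle are not thereby shown to be at the vehicle level.

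Keratins of simple epithelia rose with the inhibitor. Of the 10 renal epithelial markers 6 rose and 1 fell (median 0.24). The summed level of the 10 was 13120 to 13708 CPM with TWEAK and 14279 to 15471 CPM with NIK SMI1, against 14746 to 15472 CPM with vehicle. Krt7 was at 3220, 3310 and 3386 CPM and 4112, 4380 and 3947 CPM, without overlap (log2 fold change 0.33 ± 0.032, adjusted p = 2.36e-08). Krt8, Krt18 and Krt19 had log2 fold changes of 0.24 ± 0.03, 0.24 ± 0.033 and 0.25 ± 0.033. Pax2 and Pax8, transcription factors of the nephron lineage, had values of 0.33 ± 0.061 and 0.28 ± 0.049. Epcam, the epithelial adhesion molecule, went the other way, from 1385, 1270 and 1339 to 859, 855 and 882 CPM (log2 fold change -0.62 ± 0.033, adjusted p = 3.3e-13), with vehicle at 760.5, 751 and 699 CPM. In bulk RNA, fewer cells of a type and less RNA per cell cannot be told apart.

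Markers of other kidney cell types were few. Of 5 listed podocyte genes 3 were tested and 2 rose. Synpo, which encodes the actin-binding synaptopodin, went from 34.95 ± 2.17 to 46.3 ± 0.546 CPM (0.40 ± 0.051) and Podxl, the sialomucin podocalyxin, from 349.5 ± 4.63 to 398 ± 8.36 CPM (0.19 ± 0.03). Wt1, a transcription factor of podocytes, was at 0.0884, 0.306 and 0.384 and 0.115, 0.165 and 0.282 CPM and did not pass the test (-0.63 ± 0.59, adjusted p = 0.585). Of 8 endothelial genes 2 were tested and Flt1, a receptor of VEGF, fell from 46.2 ± 0.589 to 38.2 ± 0.773 CPM (-0.27 ± 0.047, adjusted p = 0.000157). The summed level of all 8 was 46.3 to 47.3 CPM with TWEAK and 38.3 to 39.8 CPM with the inhibitor. Of 10 fibroblast and smooth muscle genes 4 were tested, of 10 leukocyte genes 2, and of 10 distal nephron genes 0. None of them was called by edgeR, by DESeq2 or at an unadjusted p under 0.05. The leukocyte genes Cd3e and Nkg7 had no read in the 9 samples of 6 h, but other genes of that list had reads. Its 10 genes summed to 19.3 to 21.9 CPM with TWEAK and 19.2 to 19.5 CPM with the inhibitor. The fibroblast and smooth muscle list summed to 15.4 to 16.1 and 15.9 to 18.8 CPM.

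Among 32 AP-1 and immediate early genes 8 rose and 3 fell (median 0.07). Of the 8 phosphatases in this list that switch off MAP kinases, 3 rose and 1 fell. Dusp1 rose from 57.9, 63.5 and 61.4 to 81.7, 78.4 and 84.8 CPM (log2 fold change 0.42 ± 0.045, adjusted p = 1.17e-07). Dusp5 rose from 68.6 ± 4.25 to 90.05 ± 1.26 CPM (0.39 ± 0.053) and Dusp6 from 242 ± 1.65 to 293 ± 3.80 CPM (0.28 ± 0.027). The one that fell was Dusp4, from 146, 139 and 149 to 131, 131 and 135 CPM (log2 fold change -0.13 ± 0.036, adjusted p = 0.0219), and its call was lost in 6 of 13 alternative settings. For Dusp6 the vehicle level was 337 ± 2.78 CPM, above the samples with NIK SMI1. The AP-1 gene Fosl2 fell from 214, 224 and 228 to 190.4, 184 and 182 CPM (log2 fold change -0.26 ± 0.035, adjusted p = 6.41e-06). Members of the Fos family thus moved in opposite directions without overlap.

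The inhibitor effect at 6 h was then set beside that at 24 h, where it was measured in 6 other samples of the series. NIK SMI1 lowered 1286 genes (8.29%) and raised 1579 (10.2%) at 24 h. Of the genes lowered at 6 h, 554 were also lowered at 24 h (62.6% of the 6 h list and 43.1% of the 24 h list) and 20 were raised. Of the genes raised at 6 h, 487 were also raised at 24 h (58.7% of the 6 h list and 30.8% of the 24 h list) and 6 were lowered. Among the 170 genes lowered more than 1.5-fold at 6 h, 134 (78.8%) were lowered at 24 h. Their median log2 fold change was -0.89 at 6 h and -0.92 at 24 h, and that of the 46 genes raised more than 1.5-fold was 0.73 and 0.64, with the genes chosen on the 6 h values.

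A test of the difference between both times (an interaction contrast in the same fit) took the signed log2 fold change at 24 h minus that at 6 h. The signed value at 24 h was called lower for 252 genes (1.62%) and higher for 483 (3.11%). For a gene lowered at both times, a lower value is a deeper decrease at 24 h. These counts fell to 128 and 260 without inhibitor sample 2 of 6 h, to 133 and 296 without TWEAK sample 1 of 6 h, and to 132 and 269 without inhibitor sample 3 of 24 h. Without TWEAK sample 1 of 24 h they were 146 and 348, and without TWEAK sample 2 of 24 h 170 and 313. Of the 170 genes lowered more than 1.5-fold, 21 had a lower and 9 a higher value at 24 h, and of the 46 raised, 3 had a lower and 1 a higher value. Vcam1, Ccl9 and Pglyrp2 did not pass this test, with log2 fold changes at 24 h of -2.82 ± 0.061, -2.29 ± 0.055 and -4.45 ± 0.16 (adjusted p of the difference = 0.288, 0.842 and 0.154). Decreases were deeper at 24 h for Mmp9 (-1.49 at 6 h and -2.48 at 24 h, adjusted p of the difference = 2.03e-05), Icam1 (-1.03 and -2.14, 0.00139) and C3 (-0.89 and -1.68, 7.59e-05). In the NF-κB pathways this held for Nfkbia (-1.14 and -1.49, 0.000718), Nfkbie (-0.73 and -1.28, 0.000185) and Relb (-0.22 and -0.58, 0.000942). The decreases of Plau and Abcg2, a drug efflux transporter, were called at 6 h and not at 24 h. Plau was at -0.24 and 0.03 (adjusted p of the difference = 0.000219) and Abcg2 at -0.37 and 0.02 (0.00148).

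On the raised side Fosb differed between the times, with a log2 fold change of 0.94 at 6 h and -0.22 at 24 h (adjusted p of the difference = 0.00058). Thbd (0.73 and 0.81) and St8sia1 (0.93 and 1.41) did not pass that test (adjusted p = 0.72 and 0.269). In the sterol and fatty acid list 30 of 39 genes were raised at 24 h (median 0.32). For 9 the effect was higher at 24 h than at 6 h, among them Scd2 (0.36 and 0.57, adjusted p of the difference = 0.00551), Lss (0.36 and 0.60, 0.0103) and Hmgcs1 (0.18 and 0.49, 0.00274). Among the lists, the cell cycle genes had the most members that differed between the times. At 6 h 2 of 36 fell and 1 rose (5.56% and 2.78%), no more than the 5.70% and 5.34% of all tested genes. The 2 that fell were Mcm3 and Mcm4, which encode subunits of the replicative helicase (-0.15 ± 0.036 and -0.14 ± 0.039). The call for Mcm4 was lost in 5 of 13 alternative settings, with adjusted p up to 0.15. Ccnd2, which encodes cyclin D2, rose (0.18 ± 0.031). At 24 h 21 of 36 rose, where 10.2% of all tested genes did. The effect was higher at 24 h than at 6 h for 16 of the 36, where 3.11% of all tested genes were so called. Mcm3 and Mcm4 moved in opposite directions at the 2 times (0.13 ± 0.033 and 0.22 ± 0.036 at 24 h, adjusted p of the difference = 0.000863 and 0.000172).

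**Figure D5:**
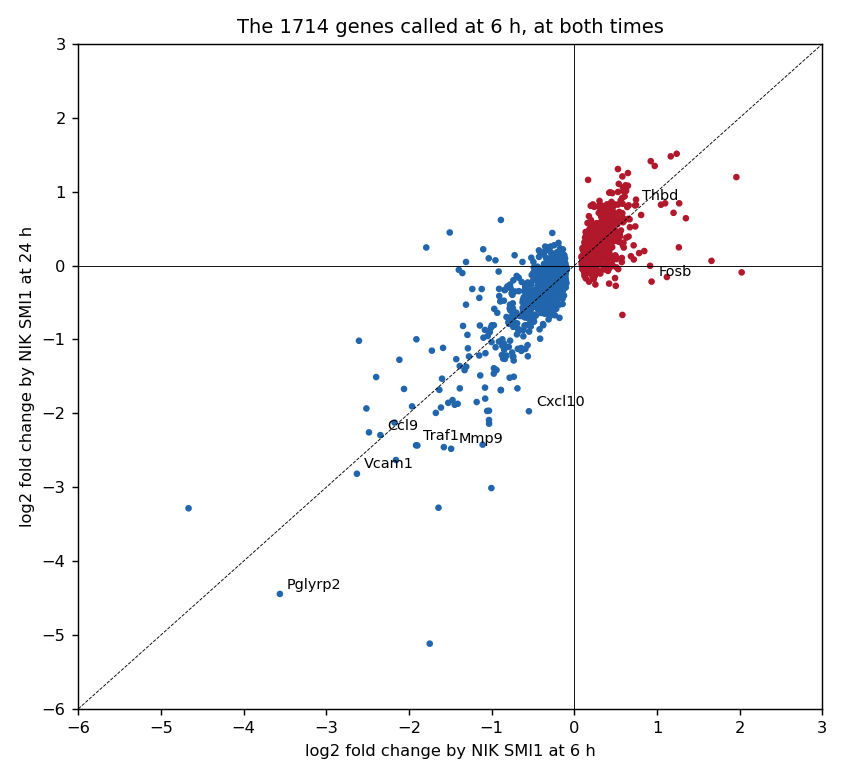
Log2 fold change by NIK SMI1 under TWEAK at 24 h (vertical axis) against that at 6 h (horizontal axis) for the 885 genes lowered (blue) and 829 raised (red) at 6 h, each time measured in its own 6 samples. The dashed line marks equal values. Vcam1 and Ccl9 lie near it, Cxcl10 and Mmp9 lie below it, and Fosb lies near 0 at 24 h.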

How the data were processed

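RNA of primary murine RPTEC was sequenced in 18 samples. Alignment by the authors used GSNAP (run by HTSeqGenie) and the mouse genome of NCBI build 37. The deposited counts are uniquely aligned reads per gene over its exons, not normalized. The deposited RPKM values divide them by exonic length and total reads and entered no test. The submitters' processing notes name DESeq2. Read length and sequencer differ between the labels and the methods of the study and are not used here. Genes are Entrez identifiers, named by RefSeq (GRCm38.p6, 14561 of 15521 tested genes matched), whose positions are not those of build 37.

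One model of 6 groups was fitted to the 18 samples with edgeR 4.0.16 under R 4.3.3 (TMM, glmQLFit, glmQLFTest, Benjamini-Hochberg adjustment). Genes with more than 10 reads in at least 4 samples were tested, and 177 genes had 11 and 183 had 10 reads in their 4th highest sample. SEs came from the F statistic. Depth was 18040966 to 51956444 reads, and 3 reads equal 0.0577 to 0.166 CPM at 6 h (counting error only). Samples of a group differed by more than counting noise (chi-square per gene 3.31 to 10.0). Samples are numbered in accession order. DESeq2 1.42.0 and the settings under the closing section were alternatives, and the scripts were tested on simulated data.

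Named genes were the 12 lowest and 12 highest log2 fold changes among called genes with a mean of at least 1 CPM and no overlap, up to 4 called members of each list per direction, a few key members, and the 5 lowest and highest differences between times. Tank, Edn1, Pax2, Pax8 and Wt1 were named after their values were seen. The comparison, lists and members were chosen with earlier results of these data known.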

Additional observations from a re-analysis of the deposited data

Results flagged for a closer look

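Genes were marked for a closer look where the inhibitor effect differed between 6 h and 24 h by the interaction test (edgeR, Benjamini-Hochberg adjusted p under 0.05) and the gene was among the 24 with the largest changes at 6 h, or had one of the 5 lowest or 5 highest differences above a mean of 1 CPM. Differences are the log2 fold change at 24 h minus that at 6 h. Of the 24 genes, Traf1 (difference -0.52, adjusted p = 0.0118), Plxnd1 (difference -0.31, adjusted p = 0.0148), Mmp9 (difference -0.99, adjusted p = 2.03e-05) and Fosb (difference -1.15, adjusted p = 0.00058) were so marked, the first 3 with deeper decreases at 24 h and Fosb with an increase at 6 h and none called at 24 h.

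Cxcl10, with group means of 3.52 and 2.38 CPM at 6 h and 10.4 and 2.64 CPM at 24 h without and with the inhibitor under TWEAK, had a difference of -1.42 (adjusted p = 0.000324). Col5a3, a collagen V chain, had means of 1.24 and 1.13 CPM at 6 h and 4.25 and 0.881 CPM at 24 h and a difference of -2.13 (adjusted p = 0.000329). It was not called at 6 h (adjusted p = 0.832) and fell at 24 h (-2.25 ± 0.21). In the other direction Mctp1 (difference 1.24, adjusted p = 5.87e-05), Grin1 (difference 1.35, adjusted p = 0.0178), Sprr2g (difference 1.17, adjusted p = 0.00979), Ccdc74a (difference 1.18, adjusted p = 0.0312) and GeneID 102633864 (difference 1.51, adjusted p = 0.00987) had higher values at 24 h. Of these, Mctp1 had means of 9.54 and 10.8 CPM at 6 h and 1.51 and 4.04 CPM at 24 h, and Sprr2g of 5.31 and 7.20 CPM at 6 h and 0.820 and 2.39 CPM at 24 h. GeneID 102633864 fell at 6 h (-0.89 ± 0.25, adjusted p = 0.0194), and at 24 h its log2 fold change was 0.62 ± 0.23, adjusted p = 0.0642.

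The islet genes Ins2 (difference -8.96, adjusted p = 0.022), Scg2 (difference -4.89, adjusted p = 0.0345) and Iapp (difference -4.58, adjusted p = 0.0144) were marked because their transcripts, present in all samples of 6 h, were nearly missing from some of 24 h. Ins2 was at 15.7, 8.39 and 8.47 CPM in the TWEAK samples and 9.49, 7.94 and 7.90 CPM in the inhibitor samples at 6 h, at 6.51, 0 and 1.99 CPM in the TWEAK samples at 24 h, and had no read in the 3 inhibitor samples at 24 h. At 6 h none of the 3 genes was called between the groups (adjusted p = 0.684, 0.709 and 0.613). The size of a fitted difference against samples at 0 depends on the prior count and is no bound.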

How the results depend on the processing

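The 4 counts of the inhibitor effect at 6 h kept within 1.5 times their value under DESeq2, DESeq2 size factors in edgeR, no filter, filterByExpr, the 9 or 6 samples fitted alone, and thinning to the smallest library. DESeq2 called 911 lowered and 835 raised genes, of which 850 and 805 were shared. When the decrease or increase itself had to exceed 1.5-fold (edgeR glmTreat), 37 genes were lowered and 0 raised, where the quasi-likelihood test called 46 genes past 1.5-fold upward and DESeq2 43. Leaving out 1 sample gave 625 to 964 lowered and 488 to 861 raised genes, 141 to 171 lowered and 32 to 58 raised more than 1.5-fold. The difference between 6 h and 24 h was less stable, with 128 to 367 genes lower and 260 to 719 higher at 24 h. The lower counts came without TWEAK sample 1 of 6 h (133 and 296), inhibitor sample 2 of 6 h (128 and 260) and inhibitor sample 3 of 24 h (132 and 269), the count of lower genes also moved without TWEAK sample 1 of 24 h (146), and that of higher genes without TWEAK sample 2 of 24 h (313) and without a filter (773). The cause of these moves was not tested.

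Of 117 genes named for 6 h, 99 kept direction and call in all 13 settings (12 for Casp4 and Wt1, which could not be fitted after thinning), 17 called genes lost the call in at least 1 and Ccl5 gained it in 1. None changed direction. Depth limits the genes under about 1 CPM, in which 3 reads stand for 0.0577 to 0.166 CPM. No paired analysis was possible because the labels give no replicate numbers.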

Other observations

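The lists below are read against the 5.70% of all tested genes that were lowered and the 5.34% that were raised. With NIK SMI1 at 6 h, in the list of the aryl hydrocarbon receptor and xenobiotic response 7 of 17 tested genes fell and 2 rose (41.2% and 11.8%, median log2 fold change -0.03). The receptor's direct targets Tiparp and Cyp1b1 did not pass the test, at 38.1, 38.01 and 35.2 against 39.1, 35.5 and 42.9 CPM and 2.80, 2.92 and 3.21 against 2.72, 1.73 and 2.43 CPM. The 2 mouse genes for P-glycoprotein, a drug efflux pump, both fell, Abcb1a from 23.1, 20.5 and 23.96 to 12.6, 11.97 and 13.1 CPM (log2 fold change -0.84 ± 0.092, adjusted p = 1.93e-07) and Abcb1b from 98.6, 97.7 and 99.8 to 64.9, 66.1 and 65.2 CPM (-0.59 ± 0.042, adjusted p = 6.35e-11), as did Abcg2 (-0.37 ± 0.052, adjusted p = 1.03e-05). As close paralogs, Abcb1a and Abcb1b may share ambiguous reads, and Ugt1a7c (-0.36) shares exons with its neighbours, so these values are uncertain to that extent. Among 20 NRF2 targets 7 rose and 2 fell, but 3 rose without TWEAK sample 1 or 3. The oxidative stress gene Osgin1 rose from 64.4, 75.7 and 71.98 to 106, 106 and 107 CPM (0.59 ± 0.051, adjusted p = 2.86e-09) and Hmox1, which encodes heme oxygenase-1, from 155, 160.1 and 168 to 212, 183 and 181 CPM (0.26 ± 0.05, adjusted p = 0.000654). Hmox1 was also above vehicle (155 ± 6.17 CPM, adjusted p = 4.96e-05) and fell at 24 h (-0.26 ± 0.051, adjusted p of the difference = 8.23e-05).

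In the TGF-β and matrix list 7 of 35 genes fell and 5 rose (20% and 14.3%, against 5.70% and 5.34% of all tested genes). Lama3, a chain of the epithelial laminin-332, fell from 1585, 1569 and 1643 to 1174, 1107 and 1112 CPM (-0.50 ± 0.039, adjusted p = 4.02e-10) and Thbs1, an activator of latent TGF-β, from 3225, 3268 and 3416 to 2518, 2369 and 2488 CPM (-0.43 ± 0.043, adjusted p = 4.6e-08), while Sparc, a matricellular protein, rose from 246, 246 and 248 to 315, 315 and 306 CPM (0.34 ± 0.028, adjusted p = 1.32e-09) and Bmp7, a growth factor of the nephron, from 197, 219.8 and 216 to 259, 267 and 254 CPM (0.30 ± 0.037, adjusted p = 1.22e-06). Of 21 apoptosis genes 3 fell and 4 rose, with the survival gene Bcl2l1 at 0.21 ± 0.033, and Casp4, the sensor of cytosolic lipopolysaccharide, fell from 0.643 ± 0.108 to 0.155 ± 0.0644 CPM (-1.91 ± 0.41, adjusted p = 0.00186), near the floor of 3 reads (up to 0.166 CPM). Of 20 p53 targets 7 fell, among them Mdm2 (-0.20 ± 0.031), and 3 rose, among them Gdf15 (0.41 ± 0.052), and the lowered count was 4 without TWEAK sample 1 or inhibitor sample 1. Stress of protein folding gave 3 decreases, with Vldlr at -0.46 ± 0.058, and 3 increases among 20 genes (0 increases without TWEAK sample 1). Glycolysis and hypoxia gave 6 increases among 26 genes (3 without TWEAK sample 1) and 0 decreases by edgeR and DESeq2 (4 at an unadjusted p under 0.05). Oxidative phosphorylation gave 2 increases among 23 (1 without TWEAK sample 1 or 2 or inhibitor sample 1, and 0 without inhibitor sample 2). That is 8.7%, near the 5.34% of all tested genes, and no result about this list. None of the 14 heat shock genes was called by edgeR or DESeq2, and 3 were raised at an unadjusted p under 0.05.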
